A study of Mus musculus with 4 samples.

Results

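The passage of a cell through G1 is set by D-type cyclins, by the kinases they bind and by inhibitors of those kinases. Transcripts of 10 genes of this module were followed across single cells of mouse medulloblastoma: the cyclins Ccnd1, Ccnd2 and Ccnd3, the kinases Cdk4 and Cdk6, the CIP/KIP inhibitors Cdkn1a, Cdkn1b and Cdkn1c, and the INK4 inhibitors Cdkn2c and Cdkn2d. The genes were chosen by symbol as parts of this module, with earlier results of these data known, and all 10 were found among the 27998 genes counted. The tumours were of the Sonic hedgehog (SHH) type and came from the cerebella of 4 Atoh1-cre:SmoM2 littermates at postnatal day 20. In these mice Cre under the Atoh1 promoter switches on SmoM2, a constitutively active form of the hedgehog signal transducer Smoothened, in granule neuron precursors. All 4 mice carry Atoh1-cre and SmoM2, each gave 1 library, and the study has no group without the active allele, so every comparison below sets 1 class of cells against another from the same animals.

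D-type cyclins bind CDK4 or CDK6, and the active pair phosphorylates the retinoblastoma protein (RB), which frees E2F factors to drive the genes of S phase. INK4 proteins bind CDK4 and CDK6 and keep them from their cyclins, whereas CIP/KIP proteins also inhibit cyclin E and cyclin A complexes. In the developing cerebellum, SHH keeps granule neuron precursors in division, and Ccnd1, Ccnd2 and Mycn are known targets of the pathway there.

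After filtering, 4122 cells of 5670 barcodes were analysed, with 1364, 884, 704 and 1170 cells in mice 1 to 4 and median depths of 1727 to 2564 UMIs per cell. A UMI (unique molecular identifier) tags 1 captured transcript, and levels are given in CPM, the usual scaling of a gene's UMIs by all UMIs of its class. The granule-lineage-like class held 3764 cells, of which 3410 were progenitor-like and 354 were differentiating, with 37.6 to 52.8 UMIs of 8 differentiation markers per 10000 in differentiating cells, against 11.3 to 14.1 in progenitor-like cells. Progenitor-like names every granule-lineage-like cluster not called differentiating, whether or not its progenitor markers were raised. The 8 progenitor markers summed to 9.72 to 11.4 UMIs per 10000 in progenitor-like and 5.19 to 6.73 in differentiating cells. Besides these, 182 cells were astroglia-like, 109 oligodendrocyte-precursor-like (OPC-like), 23 oligodendrocyte-like and 39 myeloid-like. Library 3 stood apart: 1 progenitor-like cluster of 436 cells held 307 cells of mouse 3, and Cdkn1a was among its leading genes. Any pair of libraries shared 1 to 5 cell barcodes.

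Promoter sequences of RefSeq on the build GRCm38.p6, 250 bases before to 50 after an annotated start, were listed for 7 of the 10 genes. Those of genes whose transcripts moved together or are read against a known regulator below are shown on the strand of the gene, with motif matches in capitals. The motif searched in the kinase promoters was CACGTG, the E-box of MYC family proteins, which is the same on both strands. In Cdkn1a the capitals mark adjoining copies of the p53 consensus decamer with at most 1 mismatch. In the INK4 genes they mark CCAAT on either strand and, in Cdkn2c, also CACGTG.
Cdk4, chr10:127063285-127063584, plus strand: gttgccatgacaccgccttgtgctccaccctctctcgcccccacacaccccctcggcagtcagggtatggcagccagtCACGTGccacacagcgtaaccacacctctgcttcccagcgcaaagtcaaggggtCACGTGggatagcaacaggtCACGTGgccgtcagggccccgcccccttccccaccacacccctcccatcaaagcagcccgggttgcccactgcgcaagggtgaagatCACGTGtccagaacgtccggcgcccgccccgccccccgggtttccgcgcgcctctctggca
Cdk6, chr5:3343643-3343942, plus strand: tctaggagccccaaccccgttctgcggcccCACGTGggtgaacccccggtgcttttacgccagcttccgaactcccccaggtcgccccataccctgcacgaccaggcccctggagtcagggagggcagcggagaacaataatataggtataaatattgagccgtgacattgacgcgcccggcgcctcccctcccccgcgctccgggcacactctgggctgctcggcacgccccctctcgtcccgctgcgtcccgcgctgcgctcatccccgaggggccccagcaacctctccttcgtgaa
Cdkn1a, chr17:29090729-29091028, plus strand: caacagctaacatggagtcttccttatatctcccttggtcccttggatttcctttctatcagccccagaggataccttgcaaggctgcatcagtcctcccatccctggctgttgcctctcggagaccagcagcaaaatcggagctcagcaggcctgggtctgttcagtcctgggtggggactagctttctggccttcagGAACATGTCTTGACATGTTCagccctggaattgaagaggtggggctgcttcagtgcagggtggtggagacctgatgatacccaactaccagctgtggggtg
Cdkn2c, chr4:109665323-109665622, minus strand: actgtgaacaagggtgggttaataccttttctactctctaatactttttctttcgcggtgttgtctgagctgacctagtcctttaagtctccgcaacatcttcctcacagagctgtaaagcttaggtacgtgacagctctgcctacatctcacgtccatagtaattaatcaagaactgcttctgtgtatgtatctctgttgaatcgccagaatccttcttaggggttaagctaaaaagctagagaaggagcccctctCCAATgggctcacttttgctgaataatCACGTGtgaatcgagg
Cdkn2d, chr9:21291160-21291459, minus strand: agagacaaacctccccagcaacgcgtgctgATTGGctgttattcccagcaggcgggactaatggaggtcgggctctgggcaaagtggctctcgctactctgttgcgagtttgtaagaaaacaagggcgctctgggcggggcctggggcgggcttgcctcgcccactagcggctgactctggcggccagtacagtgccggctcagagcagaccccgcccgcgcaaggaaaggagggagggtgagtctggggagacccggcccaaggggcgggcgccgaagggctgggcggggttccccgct

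The Cdk4 promoter held 4 E-boxes, which begin at -172, -118, -98 and -11 from the start. Of 32851 mouse promoters of the same length, 7.15% held at least 1 E-box and 8 promoters (0.0244%) held 4 or more. The Cdk6 promoter held 1, at -220. The p53 match of Cdkn1a begins at -51, and such a match was present in 29 promoters (0.0883%). CCAAT, present in 37.4% of promoters, begins at 8 in the Cdkn2c window and at -220 on the opposite strand in the Cdkn2d window. It was not particular to the INK4 genes: a Cdkn1b window held it at -161, -35 and, on the opposite strand, 46, and a Ccnd3 window at -108. Cdkn1a and Cdkn2c each have another listed start, whose windows held none of the motifs searched and are not shown. For Cdkn2c the window not shown is the one at the 5' end of the gene. The Cdkn2c window shown is at a start inside the annotated gene, as is the Cdk6 window. Neither TTTGAA, the CHR element found in promoters of late cell cycle genes (17.9% of promoters), nor the E2F sites TTTCCCGC and TTTGGCGC (1.56%) occurred in any of the 10 windows of the 7 genes on either strand. These matches describe letters in a window and are no evidence of binding.

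The first comparison asked how the module followed the cell cycle within the granule lineage. Cells were scored by 43 S-phase and 54 G2M genes, none of them among the 10, and fell into 1376 low-score, 1156 S-phase-like and 1232 G2M-like cells. S-phase-like cells carried more D-type cyclin and Cdk4 transcript than low-score cells, and the INK4 genes Cdkn2c and Cdkn2d were highest in G2M-like cells. Of 9 genes tested in S-phase-like against low-score cells, 7 rose and none fell, where 18.8% of all genes tested outside the phase lists passed in either direction. Against low-score cells, 3 of 10 rose in G2M-like cells, with 25.6% of all genes passing, and between G2M-like and S-phase-like cells 2 of 10 rose and 4 fell, with 12.9% passing. Calls are edgeR quasi-likelihood tests with the mouse as a block and a Benjamini-Hochberg adjusted p under 0.05 over all genes, and each ± after a log2 fold change is its standard error.

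**Figure D1:**
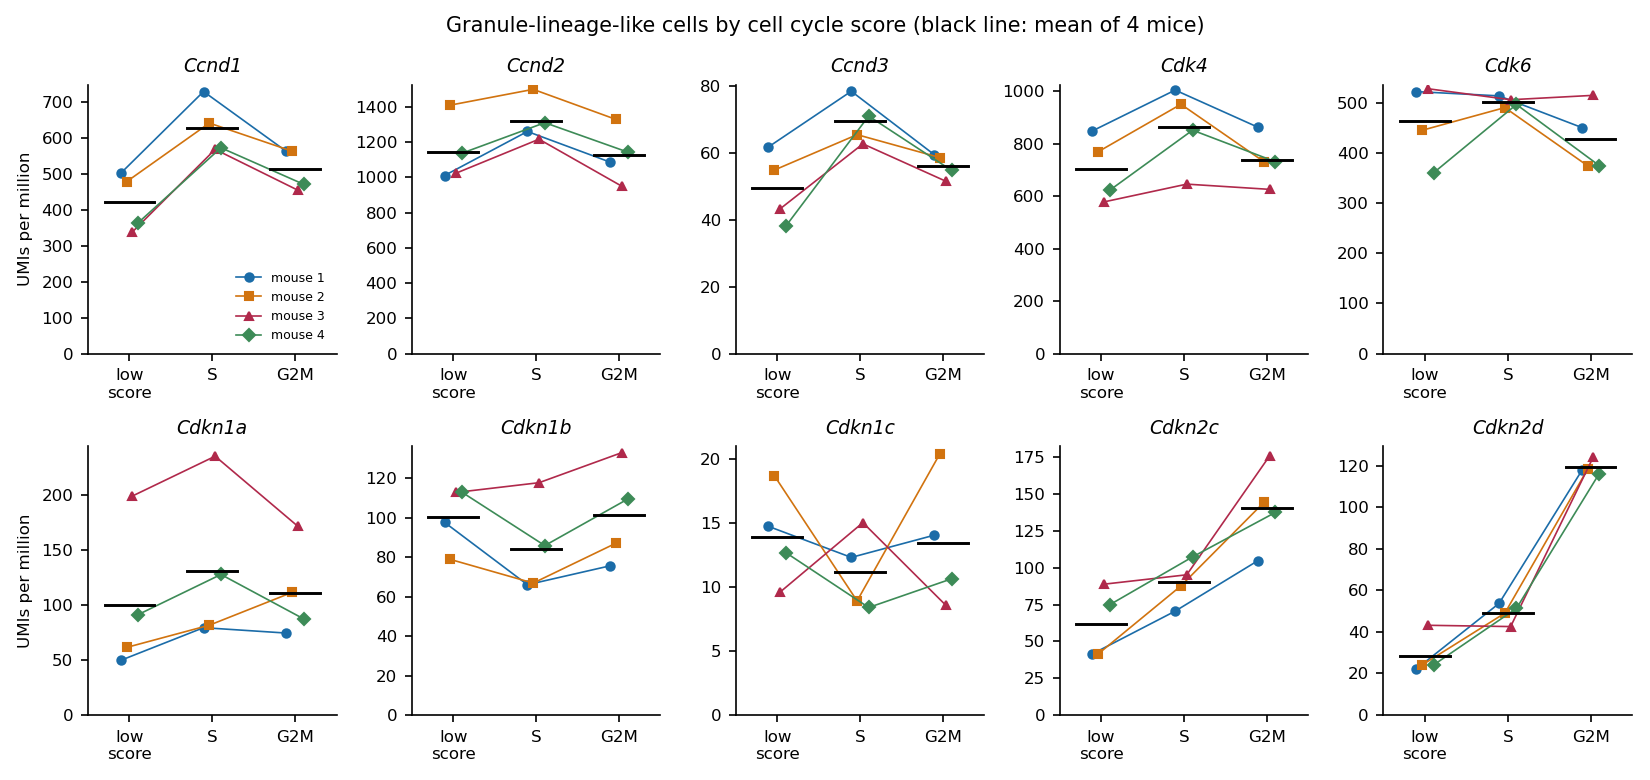
Level of each gene in granule-lineage-like cells (CPM, axis from 0) by cell cycle score, 1 marker per mouse joined by a line, with the mean of 4 mice as a black bar. Cdkn2d reached 116 to 124 CPM in the G2M-like cells of every mouse, and Cdkn1a was highest in mouse 3 in every phase.

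Ccnd1, the D-type cyclin most directly tied to mitogen signals, had 502, 478, 338 and 364 CPM in low-score cells of mice 1 to 4, 730, 642, 569 and 573 in S-phase-like cells, and 563, 563, 455 and 471 in G2M-like cells. S-phase-like cells stood above low-score cells in every mouse, and the groups did not overlap. The rise into S was 0.56 ± 0.06 log2 units (adjusted p = 2.12e-12), and G2M-like cells lay below S-phase-like cells (-0.24 ± 0.06, adjusted p = 0.000975). The difference between G2M-like and low-score cells, 0.32 ± 0.06 (adjusted p = 5.61e-05), was not called among progenitor-like cells alone (0.14, adjusted p = 0.0918) and was 0.06 (adjusted p = 0.691) without cells near the phase limit or with both scores above 0. With cells thinned to 1000 UMIs it was -0.06; this setting also left out shallower cells and called the phases anew, giving 1403 low-score, 699 S-phase-like and 1112 G2M-like cells.

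Ccnd2, which neural precursors use alongside Ccnd1, moved less. It stood at 1011, 1411, 1025 and 1138 CPM in low-score cells of mice 1 to 4, at 1261, 1501, 1217 and 1311 in S-phase-like cells, and at 1087, 1330, 950 and 1144 in G2M-like cells. Every mouse was highest in S, although the spread between mice made the groups overlap. The rise into S was 0.20 ± 0.05 (adjusted p = 0.000316) and G2M-like cells lay below S-phase-like cells (-0.17 ± 0.04, adjusted p = 0.00341). Ccnd3, the third member of the family, averaged 69.3 ± 6.94 CPM in S-phase-like and 49.4 ± 10.8 in low-score cells (SD, n = 4 mice), a rise of 0.48 ± 0.16 (adjusted p = 0.0230) that did not pass among progenitor-like cells alone (0.34, adjusted p = 0.151). That call also missed the threshold without mouse 1 (0.56, adjusted p = 0.0597) and without mouse 4 (0.34, adjusted p = 0.244).

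Cdk4 followed the cyclins and Cdk6 did so only in part. Cdk4 had 849, 770, 578 and 623 CPM in low-score cells of mice 1 to 4, 1005, 951, 646 and 852 in S-phase-like cells, and 863, 732, 626 and 732 in G2M-like cells. All 4 mice peaked in S, mouse 3 with the smallest step. Cdk4 rose by 0.30 ± 0.05 into S (adjusted p = 5.15e-06) and was lower in G2M-like than in S-phase-like cells (-0.18 ± 0.05, adjusted p = 0.00709), a difference that did not pass without mouse 2 (-0.14, adjusted p = 0.144). Cdk6 levels averaged 502 ± 10.3 in S-phase-like and 464 ± 78.7 in low-score cells, higher in 2 of 4 mice (0.13 ± 0.07, adjusted p = 0.171). In G2M-like against S-phase-like cells Cdk6 fell (-0.21 ± 0.06, adjusted p = 0.0118), in 3 of 4 mice, and that call was lost without mouse 2 (-0.18, adjusted p = 0.116) or mouse 4 (-0.16, adjusted p = 0.221).

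The CIP/KIP genes showed no common pattern. Cdkn1a, the p53-responsive inhibitor, had 49.7, 61.5, 199 and 91.3 CPM in low-score cells of mice 1 to 4, 79.5, 81.7, 235 and 128 in S-phase-like cells, and 74.6, 112, 172 and 87.4 in G2M-like cells. The differences between mice were larger than those between phases. Its rise into S, 0.43 ± 0.13 (adjusted p = 0.00841), held in 4 of 4 mice but was lost without mouse 1 (0.37, adjusted p = 0.0769), without mouse 4 (0.42, adjusted p = 0.0511) and among progenitor-like cells alone (0.32, adjusted p = 0.0686), and was -0.06 after thinning.

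Cdkn1b, whose product holds differentiating precursors out of the cycle, averaged 84.1 ± 24.2 CPM in S-phase-like and 101 ± 16.2 in low-score cells, lower in 3 of 4 mice (-0.34 ± 0.14, adjusted p = 0.0704). In G2M-like cells it averaged 101 ± 25.4, above S-phase-like cells in 4 of 4 mice (0.34 ± 0.13, adjusted p = 0.0558). Both differences missed the threshold with all cells and passed it once cells near the phase limit or with both scores were left out, at -0.51 (adjusted p = 0.0285) and 0.60 (adjusted p = 0.00943). Cdkn1c, an imprinted inhibitor, was near the limit of detection at 44, 32 and 46 UMIs in all low-score, S-phase-like and G2M-like cells, and no difference was detectable at this depth.

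Cdkn2d had the largest difference between phases of the 10 genes. It had 22.1, 24.1, 43.2 and 24.1 CPM in low-score cells of mice 1 to 4, 53.7, 49.0, 42.6 and 51.3 in S-phase-like cells, and 118, 118, 124 and 116 in G2M-like cells. G2M-like cells stood above both other classes in every mouse without overlap. The rise was 0.94 ± 0.20 into S (adjusted p = 0.000185; higher in 3 of 4 mice), 1.29 ± 0.14 from S to G2M (adjusted p = 1.55e-15) and 2.21 ± 0.16 between G2M-like and low-score cells (adjusted p = 8.46e-17). The last 2 steps kept their calls in all 13 alternative settings, in which the G2M-like over low-score difference ran from 1.89 to 2.5.

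Cdkn2c behaved alike at a smaller scale, with 41.4, 41.4, 88.8 and 74.9 CPM in low-score cells of mice 1 to 4, 70.5, 87.7, 95.2 and 107 in S-phase-like cells, and 105, 144, 176 and 138 in G2M-like cells. Every mouse climbed at both steps. The differences were 0.61 ± 0.15 into S (adjusted p = 0.00120), 0.63 ± 0.12 from S to G2M (adjusted p = 4.54e-06) and 1.25 ± 0.14 between G2M-like and low-score cells (adjusted p = 6.46e-11). Cells with both scores above 0, 27.1% of the granule lineage, were placed by the higher score and were therefore also looked at as a class of their own. Where the S score alone was above 0, Cdkn2d averaged 30.1 ± 7.89 CPM and Cdkn2c 73.0 ± 17.9, against 28.4 ± 9.93 and 61.6 ± 24.0 in low-score cells. Without cells that had both scores or lay near the phase limit, the rise into S was not called for Cdkn2d (0.19, adjusted p = 0.761) or Cdkn2c (0.40, adjusted p = 0.199), and both genes stood high in cells with both scores, at 108.5 ± 3.91 and 135 ± 25.2.

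**Figure D2:**
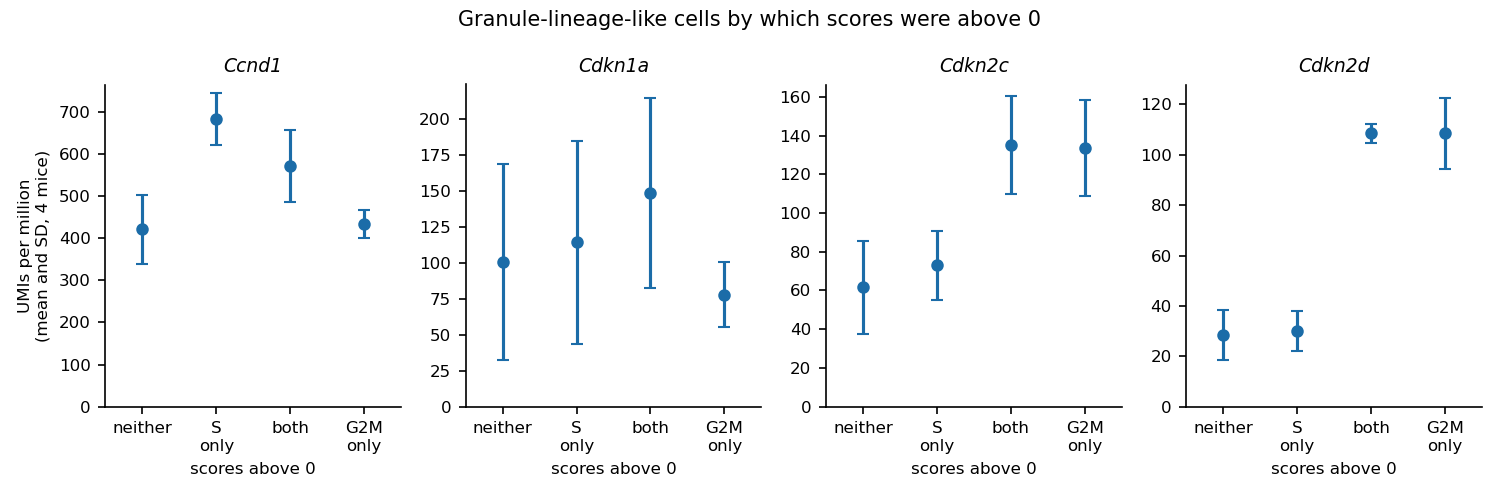
Mean and SD over 4 mice (CPM, axes from 0) of 4 genes in granule-lineage-like cells with neither score above 0, the S score only, both scores, or the G2M score only. Ccnd1 is highest with the S score only, whereas Cdkn2d is at 28.4 and 30.1 in the first pair of classes and at 108.5 in both others.

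Depth, Malat1 and states moved with phase. Median UMIs per cell were 2000 in low-score, 2288 in S-phase-like and 2190 in G2M-like cells, median Malat1 was 134.1, 126 and 88.08 UMIs per 10000, and the summed differentiation markers were 20.7, 13.3 and 13.5 UMIs per 10000. Their part in the phase differences was not tested beyond the progenitor-only and thinned values and the fit without cells under 30 Malat1 UMIs per 10000, in which none of the calls between phases was lost. Among progenitor-like cells alone, Ccnd1 (0.37), Ccnd2 (0.26), Cdk4 (0.22), Cdkn2c (0.60) and Cdkn2d (1.05) kept their rise into S. With thinned cells and phases called anew, the rise into S was called for Ccnd1, Cdk4 and Cdkn2d and no longer for Ccnd2 (0.13, adjusted p = 0.266) or Cdkn2c (0.54, adjusted p = 0.143), and the step between G2M-like and S-phase-like cells was no longer called for Cdk4, Cdk6 (-0.06) or Cdkn2c (0.26). Without the mouse as a block, the rise into S was called for Ccnd1 and Cdkn2d only, and DESeq2 called Ccnd1, Ccnd2 and Cdk4. The share of all genes called, phase lists included, was 6.20% and 3.36% in these fits, against 19.7% in the main one. With thinned cells 437 of 3986 genes were called for the rise into S, against 1448 of 7359 in the main fit. Between G2M-like and S-phase-like cells thinning called 280 of 3371 genes, against 1038 of 7419.

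Related genes gave a frame for these steps. Of 24 RB and E2F pathway genes tested outside the phase lists, 12 rose and 1 fell in S-phase-like against low-score cells (median log2 fold change 0.62, against -0.03 over all genes). Ccna2, the cyclin of S and G2, rose by 2.32 ± 0.18 and Cdk7, of the CDK-activating kinase, fell (-0.75 ± 0.21). In G2M-like against low-score cells 11 of 21 rose and none fell, among them Ccnb1, the mitotic cyclin, by 4.05 ± 0.11. Of 9 p53 targets tested, none rose and 4 fell in S-phase-like cells, while Cdkn1a rose: Btg2 (-1.09 ± 0.14), Zmat3 (-0.81 ± 0.27) and Gadd45a (-0.72 ± 0.21) fell in 4 of 4 mice. Cdkn3, a phosphatase of CDKs that is no INK4 gene, rose by 3.40 ± 0.28 in G2M-like cells. Cdkn2a and Cdkn2b, the INK4 genes outside the module followed here, had 36 and 21 UMIs in all 4122 cells and entered no phase test. Of 8 hedgehog pathway genes tested in S-phase-like cells, Gli1 (1.08 ± 0.22) and Gli2 (0.77 ± 0.24) rose and Mycn fell (-0.25 ± 0.09), as Mycn did in G2M-like cells (-0.37 ± 0.08).

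The next comparison set differentiating against progenitor-like cells of the granule lineage. Differentiating cells held less Ccnd1, Cdk6, Cdk4 and Cdkn1a and more Ccnd2 and Cdkn1b, so the D-type cyclin genes parted ways. Of the 10 genes tested, 2 rose and 6 fell, where 19.0% of all genes passed in either direction. The phase lists called 84 of 354 differentiating cells (23.7%) S or G2M, against 2304 of 3410 progenitor-like cells (67.6%), so the comparison was repeated among low-score cells. There, 2 of 8 genes tested rose and 4 fell, with 15.4% of all genes passing. The calls of Ccnd1 and Cdk6 held in both comparisons under every alternative run, and without the mouse as a block they were the only ones. In that setting 11.1% of all genes were called with all cells and 7.86% among low-score cells. With the phase scores regressed out, Cdkn1a (-0.29), Cdkn2c (-0.09) and Cdkn2d (0.13) were not called in all cells, and with no filter on low counts, which shifted the median over all genes by -0.11, Ccnd2 (0.20) and Cdkn1b (0.51) were not.

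Ccnd1 had 230, 250, 133 and 167 CPM in differentiating cells of mice 1 to 4, against 613, 582, 470 and 514 in progenitor-like cells. Each mouse's differentiating cells were below the lowest progenitor-like value. The log2 fold change was -1.45 ± 0.13 (adjusted p = 8.66e-17) and -1.55 ± 0.16 among low-score cells (adjusted p = 1.23e-20), and it kept its call in all 12 alternatives of either comparison. After thinning to 1000 UMIs, at least 1 Ccnd1 UMI was found in 18.7% of 284 differentiating cells (exact binomial 95% interval 14.3 to 23.7) and 38.5% of 2930 progenitor-like cells (36.7 to 40.3), with 70 and 480 shallower cells left out. The shares were 28.8% and 59.7% without thinning, at median depths of 1600 and 2184 UMIs. Of 29 thinned myeloid-like cells, 1 had a UMI (3.45%, 0.0873 to 17.8), at a class median of 1236 UMIs. That interval overlaps the one of differentiating cells. Whether the myeloid-like UMI was free RNA or the cell's own was not tested. These intervals cover counting error only.

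Ccnd2 went the other way, with 1535, 1833, 1274 and 1236 CPM in differentiating cells of mice 1 to 4, against 1087, 1378, 1046 and 1195 in progenitor-like cells. The differentiating value was the higher one in every mouse, by little in mouse 4. The rise was 0.32 ± 0.09 (adjusted p = 0.00435), and 0.46 ± 0.10 among low-score cells (adjusted p = 4.84e-05). Without mouse 1 it was 0.25 (adjusted p = 0.146) and among low-score cells 0.27 (adjusted p = 0.167), and without mouse 2 it was 0.28 (adjusted p = 0.0925). Ccnd3 averaged 40.8 ± 27.0 CPM in differentiating and 59.8 ± 4.70 in progenitor-like cells, a difference that did not pass (-0.43 ± 0.28, adjusted p = 0.317).

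The makeup of the D-type cyclin UMIs shifted with these changes. Ccnd2 gave 83.3%, 86.7%, 89.6% and 85.8% of them in differentiating cells of mice 1 to 4, against 61.6%, 68.2%, 66.6% and 67.6% in progenitor-like cells. Ccnd1 gave 11.3% ± 1.34 and 30.6% ± 2.78 (SD, n = 4 mice), with no overlap between the groups. Shares are of UMIs read at transcript ends and are not scaled to transcript length.

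**Figure D3:**
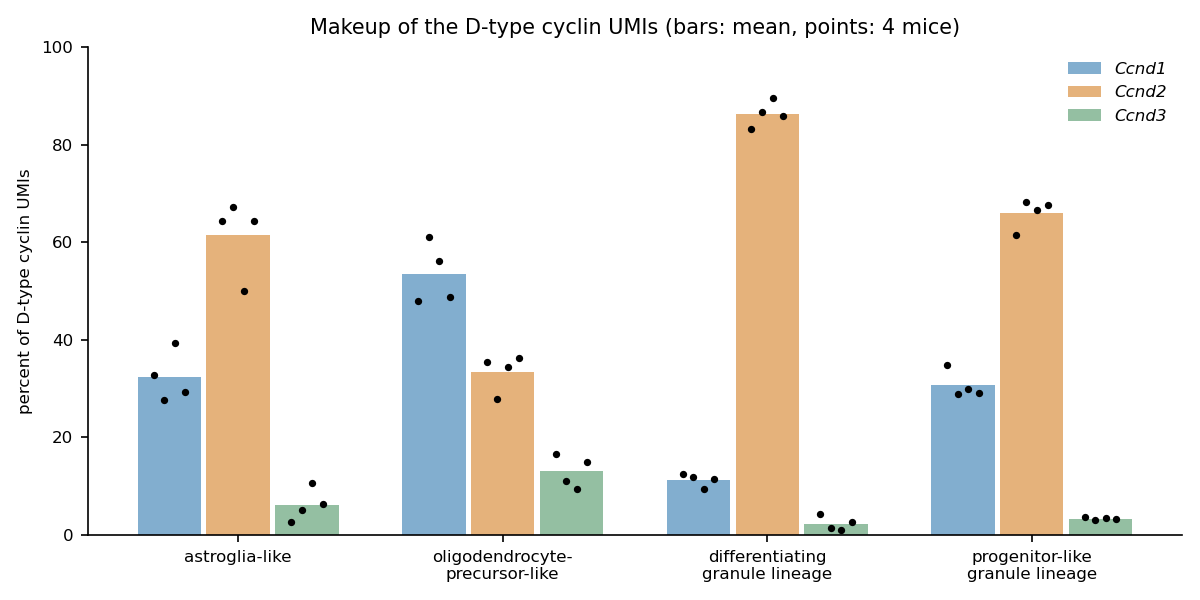
Percent of all D-type cyclin UMIs that were Ccnd1, Ccnd2 or Ccnd3 in 4 classes of cells, as the mean (bars, axis from 0) and the value of each of 4 mice (points). Ccnd2 averages 86.3% in differentiating and 66.0% in progenitor-like cells, and Ccnd1 averages 53.5% in OPC-like cells.

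Both kinases fell. Cdk6 had 351, 308, 193 and 198 CPM in differentiating cells of mice 1 to 4, against 506, 445, 534 and 436 in progenitor-like cells, again without overlap. Its log2 fold change was -0.82 ± 0.13 (adjusted p = 1.14e-07) and -0.90 ± 0.14 among low-score cells (adjusted p = 8.62e-09). Low Cdk6 was not particular to differentiating cells. The progenitor-like cluster of 726 cells, with a median of 7.87 Malat1 UMIs per 10000, held 234 CPM. The other progenitor-like clusters held 445 to 556, and the differentiating clusters of 216 and 138 cells held 287 and 195. Cdk4 had 622, 590, 563 and 598 CPM in differentiating cells, against 919, 831, 620 and 762 in progenitor-like cells, so that mouse 3 alone held progenitor-like cells nearly as low as differentiating ones. The change was -0.40 ± 0.10 (adjusted p = 0.00165) and -0.37 ± 0.12 among low-score cells (adjusted p = 0.0134). It did not pass without mouse 1 (-0.34, adjusted p = 0.0513), and among low-score cells without mouse 1 (-0.30, adjusted p = 0.200) or mouse 2 (-0.33, adjusted p = 0.0890).

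**Figure D4:**
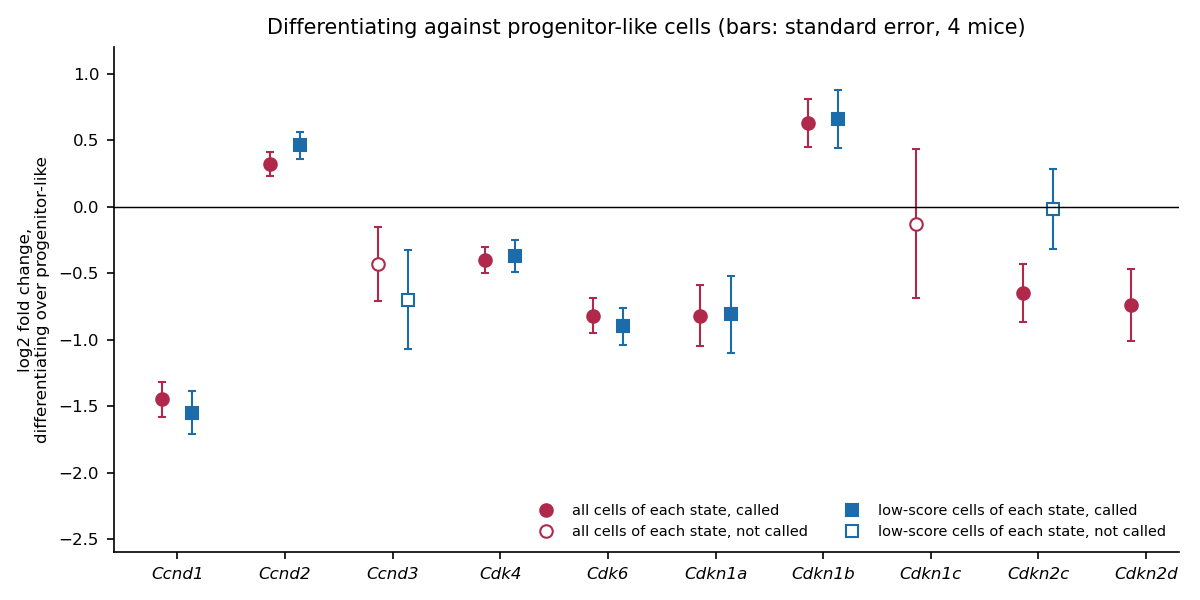
Log2 fold change of differentiating over progenitor-like cells with its standard error for each gene, for all cells of each state (circles) and for low-score cells (squares), filled where called. Ccnd1 lies at -1.45 and -1.55, Ccnd2 and Cdkn1b lie above 0 in both, and Cdkn2c moves from -0.65 to -0.02 among low-score cells.

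Of the CIP/KIP genes, Cdkn1b rose and Cdkn1a fell. Cdkn1b had 163, 83.3, 163 and 145 CPM in differentiating cells of mice 1 to 4, against 75.9, 77.5, 119 and 97.6 in progenitor-like cells. Mouse 2 showed almost no step and the other mice a clear one. The rise was 0.63 ± 0.18 (adjusted p = 0.00546) and 0.66 ± 0.22 among low-score cells (adjusted p = 0.0206), and it missed the threshold without mouse 1 (0.46, adjusted p = 0.138) and without mouse 4 (0.62, adjusted p = 0.0939), as it did among low-score cells (0.56 and 0.41).

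Cdkn1a had 36.3, 38.5, 44.4 and 81.8 CPM in differentiating cells, against 68.6, 88.5, 209 and 104 in progenitor-like cells. It was lower in 4 of 4 mice (-0.82 ± 0.23, adjusted p = 0.00439), with the widest gap in mouse 3. Without mouse 3 the change was -0.59 (adjusted p = 0.0870), and among low-score cells -0.46 (adjusted p = 0.406), against -0.81 ± 0.29 (adjusted p = 0.0363) with all mice; that low-score call was also lost without mouse 1 (-0.82, adjusted p = 0.0885) and mouse 2 (-0.66, adjusted p = 0.176). Cdkn1c rested on 8 UMIs in all differentiating cells and was not called (-0.13 ± 0.56).

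The INK4 genes fell with all cells counted and were not called among low-score cells. Cdkn2c averaged 61.4 ± 18.6 CPM in differentiating and 102 ± 23.8 in progenitor-like cells (-0.65 ± 0.22, adjusted p = 0.0231), but 50.4 ± 25.1 and 62.8 ± 26.3 among low-score cells (-0.02 ± 0.30, adjusted p = 0.977). Cdkn2d averaged 44.4 ± 22.0 and 69.4 ± 4.60 (-0.74 ± 0.27, adjusted p = 0.0400; lower in 3 of 4 mice) with all cells, and 44.1 ± 32.1 and 24.9 ± 7.77 in low-score cells, where its 20 and 59 UMIs were too few to be tested. On 45 and 29 UMIs in differentiating cells, the call of Cdkn2c was lost without mouse 2 (-0.52), mouse 3 (-0.62) or mouse 4 (-0.82), and that of Cdkn2d without mouse 1 (-0.60), mouse 2 (-0.67) or mouse 4 (-0.89). Of 27 RB and E2F pathway genes tested with all cells, 12 fell and none rose. Among low-score cells 8 were tested and 1 fell. The list keeps genes of the phase lists here, such as Cdk1 and Ccnb2, and low-score cells were picked by those genes. The low-score count was thus in part set beforehand and says nothing about the INK4 genes.

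The differentiating class was made of 2 clusters. The first, of 216 cells with a median of 243 Malat1 UMIs per 10000, held 185 CPM of Ccnd1, 1611 of Ccnd2 and 160 of Cdkn1b. The second, of 138 cells with a median of 9.56 Malat1 UMIs, held 221, 1080 and 88.5. Ccnd1 was thus low in both, while Ccnd2 and Cdkn1b were high in the first alone. Malat1 is a nuclear RNA, and its part in these values was not tested beyond the fit without cells under 30 Malat1 UMIs per 10000, in which Ccnd1, Ccnd2, Cdk4, Cdk6, Cdkn1a, Cdkn1b and Cdkn2d kept their calls.

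Of 9 p53 targets tested in differentiating cells, Bbc3 (1.03 ± 0.34), Gadd45a (0.78 ± 0.28) and Bax (0.37 ± 0.12) rose in 4 of 4 mice and none fell, beside the fall of Cdkn1a. Among low-score cells Bax rose (0.48 ± 0.15) and Btg2 fell (-1.13 ± 0.22). Of the hedgehog list only 2 genes played no part in naming these classes, and of these Mycn rose in 4 of 4 mice, with 291 ± 54.6 CPM in differentiating and 214 ± 22.3 in progenitor-like cells (0.42 ± 0.13, adjusted p = 0.0114); neither was called among low-score cells. Over the mice, Cdkn1a in progenitor-like cells was highest in mouse 3, as were 5 of the 9 p53 targets with at least 100 UMIs, while 4 were highest in mouse 2. Of all 7625 genes with as many UMIs, 34.7% were highest in mouse 3. Mdm2, the ubiquitin ligase of p53, had 46.7, 46.5, 79.0 and 60.2 CPM in progenitor-like cells of mice 1 to 4, and Btg2 104, 120, 61.8 and 82.6, so only the first had its peak where Cdkn1a did.

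The remaining comparisons placed the module in glial cells of the tumours. OPC-like cells differed from granule-lineage-like cells in 4 of 10 genes, with 1 higher and 3 lower, where 23.5% of all genes passed in either direction. They held more Ccnd3 and less Ccnd2, Cdk4 and Cdk6. Astroglia-like cells differed in 1 of 9 genes tested, Cdk6, with 3.39% of all genes passing.

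Ccnd2 had 539, 348, 350 and 444 CPM in OPC-like cells of mice 1 to 4, against 1112, 1411, 1058 and 1199 in granule-lineage-like cells. No OPC-like value came near the granule-lineage range (-1.70 ± 0.20, adjusted p = 1.47e-15). Ccnd3 had 253, 139, 95.4 and 184 CPM in OPC-like cells, against 66.1, 59.4, 52.3 and 56.1, higher in 4 of 4 mice on 33 UMIs (1.36 ± 0.36, adjusted p = 0.00114). Ccnd1 averaged 666 ± 95.7 and 520 ± 65.4 CPM, higher in 4 of 4 OPC-like values but not called (0.21 ± 0.19, adjusted p = 0.468). With low-score cells alone in both classes it passed (0.69, adjusted p = 0.00873), where the median over all genes had shifted by 0.16.

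Among the D-type cyclin UMIs of OPC-like cells, Ccnd1 gave 53.5% ± 6.30, Ccnd2 33.5% ± 3.86 and Ccnd3 13.04% ± 3.37 (SD, n = 4 mice). In granule-lineage-like cells Ccnd1 gave 29.4% ± 2.77 and Ccnd2 67.3% ± 3.08, so that OPC-like cells had the higher Ccnd1 share and the lower Ccnd2 share in every mouse. After thinning, 26.1% of 88 OPC-like cells (17.3 to 36.6) and 61.2% of 2930 progenitor-like cells (59.4 to 63.0) had a Ccnd2 UMI. Before thinning 39.4% and 79.1% had one, at median depths of 1446 and 2184 UMIs. Of 29 thinned myeloid-like cells 10.3% had one (2.19 to 27.4), an interval that overlaps the one of OPC-like cells. These intervals too cover counting error only. Averaged over 4 mice, the thinned shares were 27.9% ± 7.05 in OPC-like and 61.6% ± 4.85 in progenitor-like cells (SD).

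Cdk6 had 63.4, 41.8, 254 and 153 CPM in OPC-like cells of mice 1 to 4, against 497, 435, 516 and 412 in granule-lineage-like cells (-2.11 ± 0.28, adjusted p = 2.34e-12), on 23 OPC-like UMIs. Cdk4 had 475, 446, 477 and 382, against 902, 814, 617 and 745 (-0.96 ± 0.20, adjusted p = 2.45e-05). Both kinases were lower in every mouse, without overlap. None of the 5 inhibitors was called; Cdkn1b, at 61.7 ± 26.2 and 95.7 ± 20.4 CPM, was lower in 4 of 4 mice (-0.79 ± 0.44, adjusted p = 0.208). The 4 calls held in all 11 alternatives that could be run. Omitting the filter on low counts shifted the median log2 fold change of all genes by -0.34, and beside that shift Ccnd1 turned to -0.12. OPC-like cells held a median of 868 Malat1 UMIs per 10000 and 6.79% mitochondrial UMIs, against 119 and 3.11% in granule-lineage-like cells, and the part of either was not tested. The phase lists called 29.4% of OPC-like cells S or G2M.

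Of the related genes tested in OPC-like against granule-lineage-like cells, 4 of 8 in the hedgehog pathway fell and none rose, among them Sfrp1 (-2.74 ± 0.33), a secreted WNT modulator, Ptch1 (-1.87 ± 0.34), the hedgehog receptor, and Mycn (-1.73 ± 0.36), the transcription factor gene. Of 25 RB and E2F genes 5 fell, with Cks1b, a CDK subunit, at -1.63 ± 0.28 and Ccna2 at -1.27 ± 0.37. Of 11 p53 targets 3 rose and 1 fell, while Cdkn1a was not called. Plk2, at 4.45 ± 0.56, was near the limit of detection in progenitor-like cells, with 6.57, 3.00, 3.29 and 2.80 CPM in mice 1 to 4. It thus passed the count filter through OPC-like cells alone, which set its direction beforehand. The median over all genes was -0.22. In astroglia-like cells 2 of 8 hedgehog genes fell, Ptch1 (-1.17 ± 0.21) and Sfrp1 (-0.55 ± 0.17), 1 of 29 RB and E2F genes fell, Cks2 (-0.74 ± 0.17), and none of 9 p53 targets was called.

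**Figure D5:**
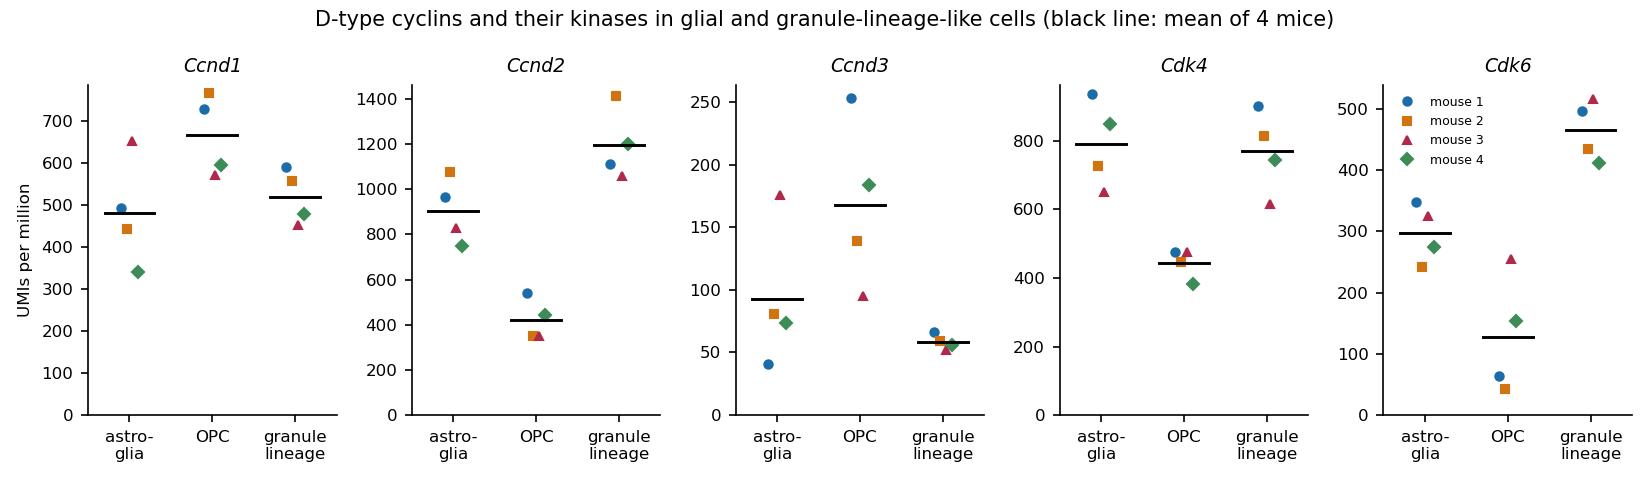
Level of the D-type cyclins and their kinases (CPM, axes from 0) in astroglia-like, OPC-like and granule-lineage-like cells, 1 marker per mouse, with the mean of 4 mice as a black bar. Ccnd2 averages 904, 420 and 1195 CPM and Cdk6 298, 128 and 465 in these classes.

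Astroglia-like cells had 349, 242, 326 and 274 CPM of Cdk6 in mice 1 to 4, against 497, 435, 516 and 412 in granule-lineage-like cells. They were lower in 4 of 4 mice without overlap (-0.53 ± 0.16, adjusted p = 0.0324). The call was lost without mouse 1 (-0.61, adjusted p = 0.125), mouse 2 (-0.49, adjusted p = 0.230) or mouse 4 (-0.59, adjusted p = 0.147), and with low-score cells alone Ccnd2 passed as well (-0.64, adjusted p = 0.0122). Ccnd1 averaged 482 ± 130 and 520 ± 65.4, Ccnd2 904 ± 145 and 1195 ± 155, and Cdk4 791 ± 127 and 769 ± 120 CPM, none of them called.

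The astroglia-like class still held granule-lineage transcripts: the 8 markers of that lineage, all detected, summed to 10.3 to 17.1 UMIs per 10000 over mice, against 17.0 to 19.3 in granule-lineage-like cells, 63.2% of its cells were under 30 Malat1 UMIs per 10000, against 21.3%, and 60.4% were called S or G2M. Their part in these values was not tested beyond the fits with low-score cells alone and with cells under 30 Malat1 UMIs per 10000 alone. The latter fit, chosen after the data were seen, called no gene of the module in 3 mice, with 3.98% of all genes passing. By cluster, Cdk6 was at 281, 187 and 404 CPM in the astroglia-like clusters of 84, 60 and 38 cells. Median Malat1 there was 8.72, 8.029 and 112 UMIs per 10000. In a reading chosen after the data were seen, the cluster with the highest astroglial marker level, of 60 cells with a median of 8.029 Malat1 UMIs per 10000, was compared alone in the 3 mice with enough of its cells. It gave Ccnd1 -0.98, Ccnd2 -1.05 and Cdk6 -1.42, each called, where the median over all genes had shifted by -0.41. Between the glial classes, 4 of the 10 genes had enough UMIs to be tested and all 4 differed, where 34.7% of 1249 genes tested passed. Cdk6 had 123 UMIs in astroglia-like and 23 in OPC-like cells. It thus passed the count filter through astroglia-like cells, so its direction was in part set beforehand. Astroglia-like cells held less Ccnd1 (-0.84 ± 0.22, adjusted p = 0.00679) and more Ccnd2 (0.81 ± 0.21, adjusted p = 0.00656), Cdk4 (0.56 ± 0.20, adjusted p = 0.0392) and Cdk6 (1.04 ± 0.36, adjusted p = 0.0351) than OPC-like cells. Without 1 mouse, 1 to 4 of these calls remained: without mouse 1 and without mouse 2 both kinases were lost, Ccnd2 was lost without mouse 2 (0.61), and Ccnd1 (-0.78) and Cdk4 (0.40) without mouse 4.

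Likeness of pattern was measured as the Pearson correlation of log2 (CPM + 10), centred within each mouse, over 24 points, that is 6 classes in 4 mice, which share libraries and depth. Of the genes with at least 500 UMIs, Pdia6 (0.898) was most like Ccnd1, Ebf1 (0.956) and Tsn (0.946) most like Ccnd2, Dctpp1 (0.912) most like Cdk4, and Npm1 (0.955) most like Cdk6. Cdkn2d was most like Ube2c (0.886), itself a gene of the G2M list, and Ccna2 (0.873), and Cdkn2c most like the histone gene Hist1h1e (0.907). Cdkn1b was most like Map1b (0.815), a microtubule protein gene of neurites, Cdkn1a most like Mybbp1a (0.802), and Ccnd3 most like Scd2 (0.841), a fatty acid desaturase gene. On 139 UMIs, Cdkn1c was most like Sltm (0.773). Within the module, Cdk4 and Cdk6 had 0.796, Ccnd2 and Cdk6 0.719, Cdkn2c and Cdkn2d 0.476, and Ccnd1 and Ccnd2 -0.491.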

How the data were processed

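Single-cell 3' transcript counts were deposited as a table of raw UMI counts per gene and barcode for each of 4 mice. Per the submitters' processing notes, Cell Ranger 2.0.2, Seurat and the build mm10 were used; whether cells were filtered before deposit is not given in the sources used here. Per the labels, cells were dissociated with Accutase for 20 min and dead cells removed by a 7-AAD sort, and mouse 1's library was sequenced at more than 1 time. Libraries held 1679285 to 3801197 UMIs.

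Barcodes with at least 500 genes and at most 10% mitochondrial UMIs were kept (4137 of 5670; the study states 4749 cells). Scrublet, at an expected rate of 2%, marked 15 cells (0.363%), which were removed; at that rate it is taken not to have worked, so doublets may remain. In Python 3.11.15, cells were clustered by scanpy 1.11.5 with leidenalg 0.10.2 on 2000 variable genes and 30 components at Leiden resolution 1, without the 10 genes, the phase lists, the related lists, mitochondrial, ribosomal, Xist and Y-linked genes. Clusters outside the granule lineage were named from marker lists (at least 3 markers, each at least 1 log2 unit higher and in at least 10% of cells). Granule-lineage-like clusters had at least 3 lineage markers in at least 10% of cells. They were called differentiating where the differentiation markers had a median log2 ratio of at least 0.5, above that of the progenitor markers. All others were called progenitor-like, and no progenitor marker had to be raised. The largest of them, of 726 cells, had a progenitor marker median of -0.649. Names are thus rebuilt. Cells with neither phase score above 0 are low-score, and others take the phase of the higher score.

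UMIs were summed per mouse and class (at least 10 cells) and tested with edgeR 4.0.16 (R 4.3.3; TMM, filterByExpr, quasi-likelihood test) with the mouse as a block, since both classes come from the same animal and library (correlations of deviations 0.0779 to 0.541); calls use Benjamini-Hochberg adjusted p under 0.05 over all genes tested. p-values therefore measure the spread of the difference between classes over 4 littermates, with counting error, and not the spread of levels between mice. On simulated counts, changes of 1 log2 unit were recovered for 85% of genes in S-phase-like against low-score, 46% in differentiating against progenitor-like, 40% in astroglia-like and 20% in OPC-like against granule-lineage-like cells. False calls made up 1.95% to 5.13% of calls over the comparisons. Every simulated gene had the same dispersion and changed genes were drawn over all levels, so recovery of genes with few UMIs is not given by these values. Alternatives were no replicate block, no filter on low counts, DESeq2 1.42.0, leaving out each mouse, at most 5% mitochondrial UMIs, at least 1000 genes, cells without low Malat1, clear phases, progenitor-like cells only, thinning to 1000 UMIs (shallower cells left out and phases called anew), scores regressed out, Leiden resolution 2 and low-score cells only; the use of the highest-marker astroglial cluster or of low-Malat1 cells alone was chosen after seeing the data. The 10 genes and the related lists (RB and E2F pathway, p53 targets, hedgehog pathway, other inhibitors) were chosen with earlier results of these data known. The text names all 10 genes and, of related genes, up to 3 called per list and direction with the largest change and 1 direction in all mice; Mdm2 is named outside that rule, and Btg2 beside it, for their levels by mouse. Likeness names up to 3 genes per member. Counts carry no strand or length correction, so levels are compared between classes; the shares of D-type cyclin UMIs set genes side by side without that correction.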

Additional observations from a re-analysis of the deposited data

Results flagged for a closer look

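Of 90 sets of 4 mouse values examined, 2 held a mouse far from the other mice, where chance marks about 1 in 20. Cdkn2d in low-score granule-lineage-like cells was 43.2 CPM in mouse 3, on 18 UMIs, against 22.1 to 24.1 in the other mice. Cdkn1a in astroglia-like cells was 376 CPM in mouse 3, on 15 UMIs from 15 cells, against 33.4 to 68.4 in the other mice.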

How the results depend on the processing

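Of 850 single-gene values under an alternative, 665 kept direction and side of the threshold, 121 lost a call, 16 gained one and 48 changed sign; where not stated otherwise the cause was not tested. Counts of called genes moved as follows. Without the replicate block 2 genes were called in S-phase-like against low-score cells (7 with it) and 2 in G2M-like against S-phase-like cells (6 with it). Of all genes, phase lists included, 6.20% (19.7% with it) and 3.87% (14.0%) were called there. Differentiating against progenitor-like cells had 2 (8 with it), their low-score cells 2 (6 with it) and astroglia-like cells 0 (1 with it). All genes there gave 11.1% (19.0% with it), 7.86% (15.4%) and 2.08% (3.39%). DESeq2 gave 3, 2, 4, 2 and 0 in the same order, and 1 of 4 between astroglia-like and OPC-like cells. Its shares of all genes, tested without the filter, were 3.36%, 2.09%, 4.38%, 1.75%, 1.39% and 2.78%. Thinning, with shallower cells left out and phases called anew, gave 3 in S-phase-like against low-score and 3 in G2M-like against S-phase-like cells. Of all genes tested, 437 of 3986 and 280 of 3371 were called there. The main fits called 1448 of 7359 and 1038 of 7419, so calls fell over all genes as well. Differentiating cells had 5 with at least 1000 genes (14.8% of all genes) and 5 with scores regressed out (13.6%). Leaving out a mouse gave 4 to 6 in differentiating cells (11.6% to 15.6% of all genes) and 2 to 5 in their low-score cells (10.0% to 12.7%). It gave 0 to 1 in astroglia-like cells (1.91% to 3.54%) and 1 to 5 between the glial classes (20.1% to 39.9%). Astroglia-like against granule-lineage-like cells had 2 without the filter (1.81% of all genes), 0 at 5% mitochondrial UMIs (1.33%), 0 at 1000 genes (1.28%) and 0 at Leiden resolution 2 (2.66%). They had 2 with low-score cells only (2.38%), 3 with the highest-marker cluster (3.74%) and 0 with low-Malat1 cells (3.98%). Beside each 0, by edgeR or DESeq2, 1 to 3 genes had an unadjusted p under 0.05. Between the glial classes 2 were called with scores regressed out (31.4% of all genes), 1 with low-score cells (39.5%) and 1 with the highest-marker cluster (37.9%).

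Signs changed at these values, few of them called in the first place. S-phase-like against low-score: Cdk6 -0.01 (progenitor-like cells only) and Cdkn1a -0.06 (thinned). G2M-like against low-score: thinned, Ccnd1 -0.06, Ccnd2 -0.19 and Cdk6 0.01; clear phases, Ccnd2 -0.08, Cdk4 -0.01, Cdkn1a -0.40 and Cdkn1b 0.10; Cdkn1b 0.04 with no replicate block, 0.02 unfiltered, 0.04 by DESeq2, 0.07 at 5% mitochondrial UMIs, 0.05 at 1000 genes, 0.04 without low Malat1 and 0.14 in progenitor-like cells; Cdkn1c 0.03 without low Malat1; and without 1 mouse, Ccnd2 -0.01 to 0.06, Cdkn1b -0.06 to 0.13 and Cdkn1c -0.11 to 0.04. G2M-like against S-phase-like: Cdkn1a 0.10 (thinned). Differentiating against progenitor-like: Cdkn1c 0.02 at 5% mitochondrial UMIs, 0.10 with scores regressed out and -0.39 to 0.35 without 1 mouse, and Cdkn2d 0.13 with scores regressed out; in low-score cells, Cdkn2c 0.05 at 5% mitochondrial UMIs, 0.07 without low Malat1 and -0.43 to 0.17 without 1 mouse. Astroglia-like against granule-lineage-like: Ccnd1 0.00 with scores regressed out; at 5% mitochondrial UMIs, Ccnd3 -0.21, Cdkn1b 0.16 and Cdkn2c -0.31; at 1000 genes, Ccnd3 -0.08, Cdkn1b 0.01 and Cdkn2c -0.23; low-score cells, Ccnd3 -0.05 and Cdk4 -0.01; unfiltered, Cdk4 -0.02 and Cdkn2c -0.05; highest-marker cluster, Cdk4 -0.25 and Cdkn2c -0.07; and Cdkn1a -0.69 to 0.22 without 1 mouse. OPC-like against granule-lineage-like: Ccnd1 -0.12 and Cdkn1c -0.25 unfiltered, and Cdkn1c -0.39 to 0.79 without 1 mouse. 6 alternatives of the glial comparisons were not run, since 1 or 2 mice kept enough cells.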

Other observations

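Oligodendrocyte-like cells came almost wholly from mouse 4, with 21 of 23 cells, and their levels there were 241 CPM of Ccnd1, 654 of Ccnd2, 913 of Cdk4 and 138 of Cdk6. Myeloid-like cells held 50 UMIs of Cdkn1a over 39 cells, of which 44 were in mouse 4, where the level was 1626 CPM. A Cdkn1a UMI was present in 7 of the 39 cells, and the 5 neutrophil markers summed to between 0.896 and 555 UMIs per 10000 in mice with at least 10 such cells; their part in the Cdkn1a level was not tested. The other mice gave 134, 333 and 0 CPM of Cdkn1a in 14, 7 and 5 myeloid-like cells. Cdkn1c was not detected in myeloid-like cells. Neither class was compared, as too few mice held 10 cells or more.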
